A study of Mus musculus with 18 samples.

Results

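In the AML12 hepatocyte line, the libraries numbered replicate 3 were compared with those numbered replicate 1. Members were chosen by the replicate number in the sample titles: 6 libraries of replicate 3 and 6 of replicate 1, together 12 of the 18 libraries of the series. Each library of replicate 3 was paired with the library of replicate 1 of the same treatment and exposure window, which gave 6 pairs. The replicate number is neither a treatment nor a genotype, and the comparison describes how cells given the same treatment differed between these numbers.

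The series exposed circadianly synchronised AML12 cells to pemafibrate, a drug that acts on the nuclear receptor PPARα, or to DMSO, and poly(A)-selected RNA was sequenced as strand-specific libraries. The 6 groups, each with 1 library per replicate number, were pemafibrate and DMSO from T0 to T24, pemafibrate and DMSO from T14 to T20, and pemafibrate and DMSO from T24 to T30. The first window lasted 24 h and the other windows 6 h. The sources used here give neither a dose nor the age of the cultures. AML12 is a non-tumour mouse hepatocyte line established from a mouse carrying a transgene for human TGFα, so all libraries come from 1 immortal line kept on plastic. The labels give only a number for each replicate, and nothing says that the numbers mark separate cultures. Since all 6 pairs set the same number against the same other number, a p-value here measures how alike the 6 pairs are and not how cultures of this line vary.

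Hepatocytes make cholesterol from acetyl-CoA through the mevalonate pathway, and the transcription factor SREBP2 raises the enzymes of this pathway when sterols in the endoplasmic reticulum run low. Differentiated hepatocytes also secrete albumin, apolipoproteins and clotting proteins under factors such as HNF4α, and PPARα drives their fatty acid oxidation. Dividing cells raise a separate set of genes in G2 and mitosis, many of which carry CCAAT boxes (bound by NF-Y) and the cell cycle homology element CHR in their promoters.

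Promoters of 3 cholesterol synthesis genes and 3 mitosis genes are shown because these lists had the highest medians of the 33 gene lists compared. Each runs from 250 bases before to 50 bases after the start of the gene, 5′ to 3′ on the gene's own strand, from RefSeq on GRCm38.p6. Capitals mark CCAAT or its reverse complement ATTGG, and TTTGAA (the CHR) or its reverse complement TTCAAA, which share no base with each other here.
Idi1, chr13:8885356-8885655, plus strand: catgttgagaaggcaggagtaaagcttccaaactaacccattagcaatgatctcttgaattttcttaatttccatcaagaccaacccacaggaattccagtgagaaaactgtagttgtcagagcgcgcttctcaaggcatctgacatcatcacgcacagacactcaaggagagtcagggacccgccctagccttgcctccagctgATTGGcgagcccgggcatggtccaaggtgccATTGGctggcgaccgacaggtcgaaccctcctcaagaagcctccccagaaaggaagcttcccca
Cyp51, chr5:4104648-4104947, minus strand: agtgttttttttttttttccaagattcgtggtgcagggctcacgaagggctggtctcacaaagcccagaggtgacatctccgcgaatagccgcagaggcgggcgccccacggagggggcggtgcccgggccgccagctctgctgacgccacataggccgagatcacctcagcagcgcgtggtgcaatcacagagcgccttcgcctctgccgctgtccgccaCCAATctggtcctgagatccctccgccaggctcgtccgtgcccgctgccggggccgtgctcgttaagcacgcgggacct
Nsdhl, chrX:72918271-72918570, plus strand: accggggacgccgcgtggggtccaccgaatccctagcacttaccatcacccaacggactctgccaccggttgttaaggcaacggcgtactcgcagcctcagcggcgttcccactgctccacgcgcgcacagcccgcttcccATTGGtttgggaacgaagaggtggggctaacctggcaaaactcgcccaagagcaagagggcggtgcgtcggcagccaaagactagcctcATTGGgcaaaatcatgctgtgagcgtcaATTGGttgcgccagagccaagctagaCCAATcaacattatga
Ccnb1, chr13:100786437-100786736, minus strand: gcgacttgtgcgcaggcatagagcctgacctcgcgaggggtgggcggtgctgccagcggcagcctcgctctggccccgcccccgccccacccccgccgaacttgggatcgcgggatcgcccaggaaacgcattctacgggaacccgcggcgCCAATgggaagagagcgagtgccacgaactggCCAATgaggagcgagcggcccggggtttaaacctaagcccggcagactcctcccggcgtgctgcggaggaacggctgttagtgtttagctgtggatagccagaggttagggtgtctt
Plk1, chr7:122159185-122159484, plus strand: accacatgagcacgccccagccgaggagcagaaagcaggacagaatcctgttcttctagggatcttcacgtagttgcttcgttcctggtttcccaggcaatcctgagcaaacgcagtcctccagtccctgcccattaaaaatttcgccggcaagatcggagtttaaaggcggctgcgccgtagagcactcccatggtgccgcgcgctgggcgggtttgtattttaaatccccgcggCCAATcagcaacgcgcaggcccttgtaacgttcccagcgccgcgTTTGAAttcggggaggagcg
Cdc20, chr4:118437294-118437593, minus strand: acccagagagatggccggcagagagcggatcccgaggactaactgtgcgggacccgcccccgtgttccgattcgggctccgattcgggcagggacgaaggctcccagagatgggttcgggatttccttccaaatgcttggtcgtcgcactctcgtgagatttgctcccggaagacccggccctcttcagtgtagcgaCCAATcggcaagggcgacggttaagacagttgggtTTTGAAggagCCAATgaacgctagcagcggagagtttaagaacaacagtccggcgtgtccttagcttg

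Of the 20 cholesterol synthesis genes 15 had a promoter in the RefSeq table, as had 15 of the 18 mitosis genes. CCAAT was found on either strand in 14 of the 15 cholesterol synthesis promoters and in 14 of the 15 mitosis promoters, against 41.1% of the 27025 genes with a promoter of this length. TTTGAA was found on either strand in 11 of the 15 mitosis promoters and in 1 of the 15 cholesterol synthesis promoters, against 20.2% of all genes. The sterol response element, searched as TCACNCCAC on both strands, was found in 1 of the 15 cholesterol synthesis promoters, against 1.44% of all genes. These matches describe the letters in the window and are neither binding sites nor causes. CCAAT was as common in a list with a median difference of 0.10 in log2, the endoplasmic reticulum chaperones, with 14 of 15 promoters.

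The values are the authors' normalized signal, and differences are given on the log2(value + 1) scale as replicate 3 minus replicate 1, which understates the change of low genes. Total signal was 33278987 to 33884634 in the libraries of replicate 3 and 31461977 to 33050070 in those of replicate 1, and read depth before normalization is unknown. A gene was tested when its mean over the 12 libraries was at least 10, which 13259 genes reached, and it was called when its Benjamini-Hochberg adjusted p from limma, with the 6 groups as blocks, was under 0.05. Of the tested genes 24.9% (3303) were higher and 22.7% (3007) lower in replicate 3, together 47.6% (6310). The balance of the directions turned with the scaling: upper-quartile rescaling of each table gave 2679 higher and 3555 lower, with the median of all genes at −0.03 in log2, and centring each library on its median gave 3087 and 3170. The second call rule also asked for a difference of at least 2-fold, which 0.724% (96 genes) passed upward and 1.59% (211 genes) downward. For 20.7% of genes all 6 libraries of replicate 3 lay on one side of all 6 of replicate 1. The median difference over all genes was 0.00 in log2, and the differences of 2 pairs correlated at 0.23 to 0.64 across genes, as a description of these libraries. The difference also varied slightly with transcript length: its median was 0.06 in log2 among the 2646 genes of the shortest transcripts, where 30.8% of genes were higher, and −0.02 to −0.01 in the other 4 bins of this size. It varied about as much with GC content, with medians from 0.03 to −0.05 over bins of the same size and 29.3% of genes lower in the bin of highest GC; centring on GC gave 3128 higher and 3177 lower.

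**Figure D1:**
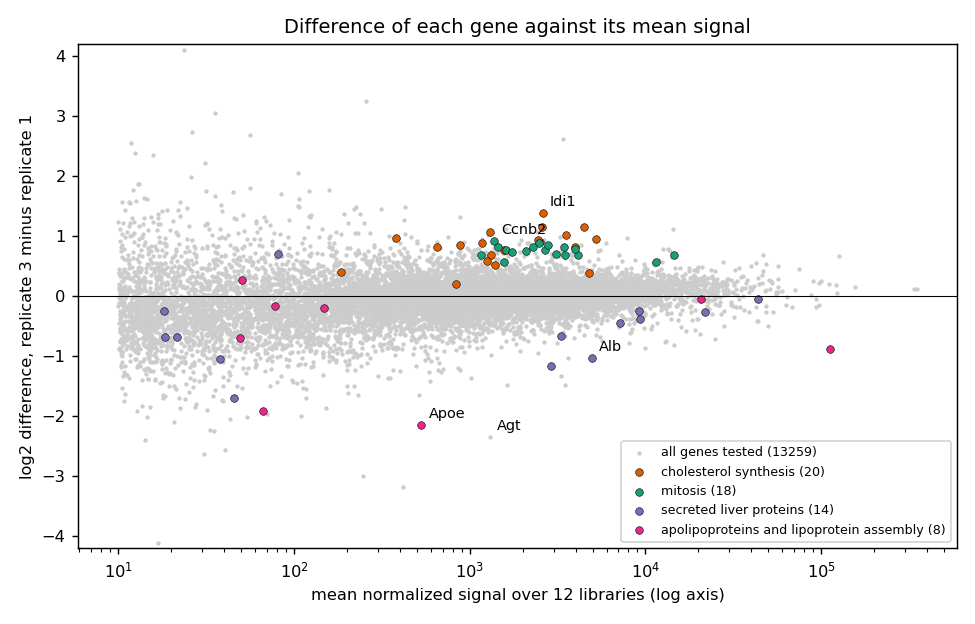
The log2 difference of each tested gene, replicate 3 minus replicate 1 (vertical axis), is plotted against its mean normalized signal over the 12 libraries (horizontal log axis), with 4 gene lists in colour. The 20 cholesterol synthesis and 18 mitosis genes lie above 0, while Apoe, Alb and Agt lie below −1.

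Idi1, Alb and Apoe mark the comparison. Idi1, the isomerase that makes dimethylallyl diphosphate in the mevalonate pathway, had a signal of 3259, 3850 and 4076 in the libraries of replicate 3 (lowest, median and highest), against 1121, 1470 and 1828 in those of replicate 1. No library of replicate 3 fell within the range of replicate 1. The difference was 1.38 ± 0.05 in log2 (SE, 6 pairs; limma adjusted p = 4.26e-07), a 2.6-fold higher signal in replicate 3. In what follows ± after a log2 difference is its SE over 6 pairs unless said otherwise, the 3 values of a number are its lowest, median and highest library, and genes said to be higher or lower, or to have risen or fallen, passed the threshold in limma. The fit takes the 6 pairs as independent, although the pemafibrate and DMSO pairs of a window can lie close together. For Ccn2 they were −0.09 and −0.01 in log2 at T0 to T24, and −1.04 and −1.09 at T14 to T20. SEs and p-values can therefore be too small. With the treatments averaged within each window 2036 genes were higher and 1852 lower, beside 3303 and 3007 in the main fit. Counts of called genes in a list are to be read against the 24.9% higher and 22.7% lower of all tested genes. The lists were chosen with earlier results of these data known, so these shares describe the lists and are not independent tests.

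Alb, which encodes serum albumin, had 3124, 3231 and 3441 in replicate 3, against 6314, 6633 and 7190 in replicate 1. The 2 ranges lay far apart, and the difference was −1.03 ± 0.03 in log2 (SE, 6 pairs; limma adjusted p = 1.37e-07). Apoe, the apolipoprotein that carries remnant lipoproteins to their receptors, had 166, 188 and 233 in replicate 3, against 788, 829 and 1006 in replicate 1. Its signal fell by 2.16 ± 0.06 in log2 (SE, 6 pairs; limma adjusted p = 4.06e-08). For each of the 3 genes the direction was the same in 6 of 6 pairs, for which an exact two-sided sign-flip test over the pairs gives p = 0.03125, the smallest it can give. Agreement of this kind was common: 22% of all tested genes had a positive difference in all 6 pairs and 19.1% a negative one. The sign-flip test also takes the 6 pairs as independent. The 3 genes were set as markers of this comparison with earlier results of these data known, so their p-values are no independent support for it. In bulk RNA, fewer cells that express a gene and less of its RNA per cell cannot be told apart.

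**Figure D2:**
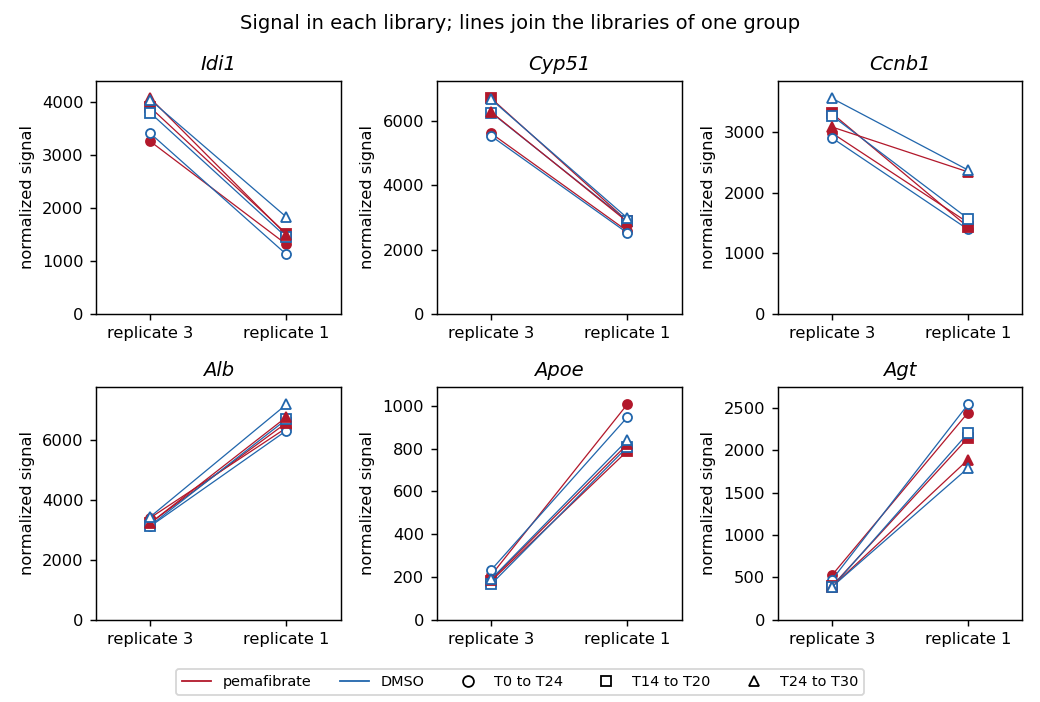
Normalized signal of 6 genes in each library, with replicate 3 at the left and replicate 1 at the right of each panel, and a line joining the libraries of one group (red, pemafibrate; blue, DMSO; symbols give the window). All 6 lines slope the same way for each gene, down toward replicate 1 for Idi1, Cyp51 and Ccnb1 and up toward replicate 1 for Alb, Apoe and Agt.

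Every gene of the cholesterol synthesis list was higher in replicate 3. All 20 were tested and called, against 24.9% of all genes, and 5 rose at least 2-fold, against 0.724%. The differences ran from 0.19 to 1.38 with a median of 0.87 in log2, and the median of the list was between 0.82 and 0.89 in each of the 6 pairs. In 18 of the 20 the libraries of the 2 numbers did not overlap, against 20.7% of all genes. The exceptions were Pmvk and Tm7sf2, named after their values were seen, at 0.40 and 0.19 in log2.

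Along the pathway, Hmgcs1, which makes HMG-CoA, was higher by 0.81 in log2. Fdps, the synthase of farnesyl diphosphate, had 2904, 3658 and 4042 in replicate 3 against 1458, 1601 and 1738 in replicate 1 (difference 1.15 ± 0.05). Sqle, the squalene epoxidase, had 4389, 4743 and 5122 in replicate 3 against 2121, 2367 and 2502 in replicate 1 (1.01 ± 0.03). Both genes thus had all libraries of replicate 3 above all of replicate 1.
Cyp51, which demethylates lanosterol, had 5540, 6280 and 6718 in replicate 3 against 2520, 2882 and 2987 in replicate 1, a difference of 1.15 ± 0.03 in log2 with a limma adjusted p of 4.06e-08. Nsdhl, which acts on the next sterol intermediates, had 1443, 1870 and 2059 in replicate 3 against 741, 832 and 939 in replicate 1 (1.07 ± 0.05). The promoters printed above belong to Idi1, Cyp51 and Nsdhl, which had 2, 1 and 4 CCAAT matches and differences of 1.38, 1.15 and 1.07 in log2.

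Replicate 2, which shares the treatments and windows, had a mean between those of replicate 3 and replicate 1 for 19 of the 20 genes. Over all tested genes that share was 38.2%, and over all called genes, a set chosen for a gap between replicate 3 and replicate 1, it was 56.3%. Among called genes with a difference of at least 2-fold, where that gap is wider, it was 85.7%. The median difference of replicate 2 from replicate 1 in the list was 0.63 in log2, beside 0.87 for replicate 3. Both comparisons use the same libraries of replicate 1.

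**Figure D3:**
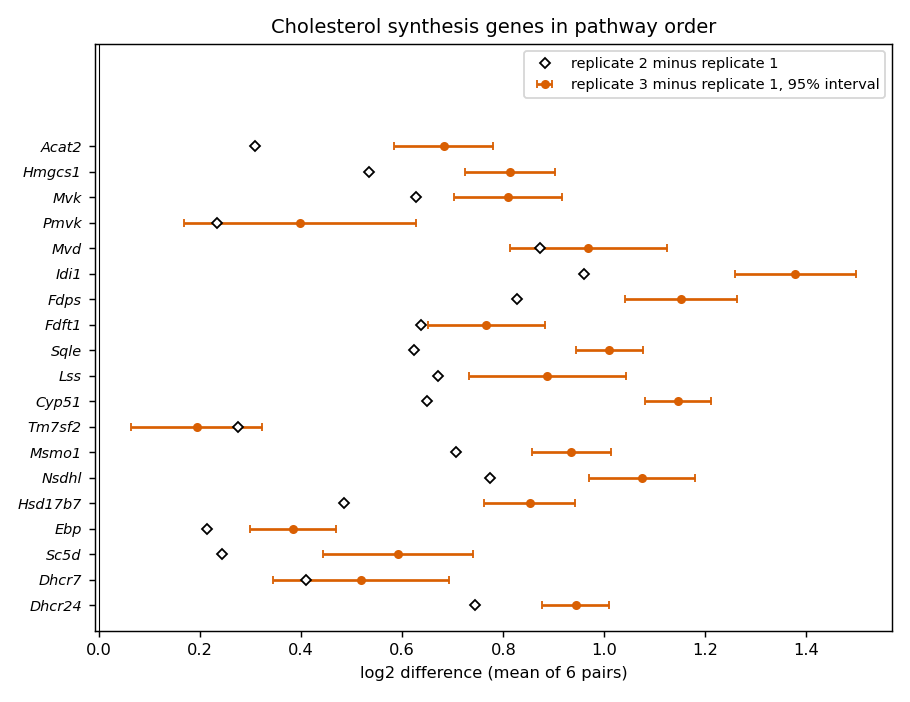
Log2 difference of 19 of the 20 cholesterol synthesis genes, in pathway order from top to bottom, averaged over 6 pairs: filled points with 95% intervals for replicate 3 minus replicate 1, open diamonds for replicate 2 minus replicate 1. All 19 filled points lie above 0, from 0.19 for Tm7sf2 to 1.38 for Idi1.

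Of 16 tested genes for sterol sensing and uptake, 7 were higher (43.8%, against 24.9% of all genes) and 4 lower (25%, against 22.7%). Insig1, which holds SREBP precursors in the endoplasmic reticulum and is itself an SREBP target, had 1631, 1708 and 1814 in replicate 3 against 795, 851 and 880 in replicate 1 (1.02 ± 0.04). Its libraries of replicate 3 all lay above those of replicate 1.
Stard4, a carrier of cholesterol between membranes, rose by 0.87 ± 0.05. Abcg8, a subunit of the transporter that exports sterols, was lower by 0.85 ± 0.28 at a signal of 4.41 to 11.8 in replicate 3 and 7.99 to 20.7 in replicate 1, so its libraries overlapped, and it was not called in 4 of 6 fits that left out 1 pair (adjusted p up to 0.0944 in limma). Of 19 tested genes for fatty acid and triglyceride synthesis, 10 were higher (52.6%) and 3 lower (15.8%), with a median of 0.11. The elongase Elovl6 rose by 0.77 ± 0.04, the desaturases Fads2, Scd2 and Fads1 by 0.75 ± 0.04, 0.68 ± 0.04 and 0.60 ± 0.03, and Mlxipl, the glucose-sensing factor ChREBP, fell by 0.80 ± 0.12.

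Genes of the differentiated hepatocyte were more often lower than higher in replicate 3. Among 14 tested genes for secreted liver proteins 9 were lower, against 22.7% of all genes, and 1 was higher, with a median of −0.55 in log2. Ttr, the carrier of thyroid hormone and retinol-binding protein, had 1452, 1844 and 1988 in replicate 3 against 3643, 4094 and 4276 in replicate 1 (−1.17 ± 0.08). Vtn, the adhesion protein vitronectin, had 14.2, 19.5 and 36.8 in replicate 3 against 49.9, 69.8 and 87.9 in replicate 1 (−1.69 ± 0.23). The libraries of both genes lay apart, while those of Serpinc1, antithrombin, which fell by 1.06 ± 0.25, overlapped. The exception was Afp, the fetal counterpart of albumin, with 92.3, 101 and 110 in replicate 3 against 49.6, 62.9 and 76.8 in replicate 1 (0.70 ± 0.12, limma adjusted p = 0.00114). Another 6 genes of the list were below the filter.

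Of 8 tested genes for apolipoproteins and lipoprotein assembly 4 were lower (50%, against 22.7% of all genes) and none was higher. Another 8 were below the filter. Apoc1, an apolipoprotein of remnant particles whose gene lies beside Apoe, had 20.3, 26.6 and 37.0 in replicate 3 against 97.0, 105 and 120 in replicate 1 (−1.91 ± 0.15). Clu, which encodes clusterin, had 66020, 69340 and 105700 in replicate 3 against 131000, 146400 and 157000 in replicate 1 (−0.89 ± 0.09). Both genes had separate ranges, whereas Lcat, the cholesterol-esterifying enzyme of plasma, fell by 0.71 ± 0.14 with overlapping libraries. Apob, the structural protein of VLDL, differed by −0.04 in log2 and was not called.

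Among 19 liver transcription factors 11 were lower (57.9%, against 22.7% of all genes) and 2 higher (10.5%, against 24.9%). Nr5a2 (LRH-1), Nr1i2 (the pregnane X receptor) and Foxa3 fell by 1.01 ± 0.15, 0.99 ± 0.20 and 0.86 ± 0.06 in log2, with no overlap between the numbers. Prox1 fell by 0.54 ± 0.06, and Ppara itself by 0.69 ± 0.17 in 5 of 6 pairs. Hnf4a, the central factor of hepatocyte identity, went the other way: 7871, 9049 and 9662 in replicate 3 against 7013, 7219 and 7546 in replicate 1, a difference of 0.28 ± 0.04 without overlap. Of 10 tested metabolic enzymes 5 were lower (50%) and 1 higher (10%). Another 14 of the 24 listed, among them Cps1, Cyp2e1 and Pck1, were below the filter in these cells. Cyp27a1, the mitochondrial sterol hydroxylase of bile acid synthesis, had 189, 202 and 207 in replicate 3 against 286, 328 and 364 in replicate 1 (−0.69 ± 0.07), while Ass1 of the urea cycle was higher by 0.51 ± 0.15 in 4 of 6 pairs and was not called in 4 of 6 fits that left out 1 pair (adjusted p up to 0.0727 in limma).

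Targets of PPARα, the receptor that pemafibrate acts on, were lower or not called. Among 16 tested targets 7 were lower (43.8%, against 22.7% of all genes) and none was higher, with a median of −0.18. Acot1, an acyl-CoA thioesterase, had 1528, 2423 and 3181 in replicate 3 against 2164, 3387 and 4768 in replicate 1, and fell by 0.51 ± 0.05 (limma adjusted p = 8.04e-05). In pemafibrate libraries it had 2836, 2781 and 3181 in replicate 3, against 4357, 3970 and 4768 in replicate 1, from the earliest window to the last. In DMSO libraries it had 1528, 1807 and 2065 in replicate 3, against 2403, 2164 and 2804 in replicate 1. Replicate 3 was thus below replicate 1 in 6 of 6 pairs, while the ranges over both treatments overlapped. The difference was −0.57 in pemafibrate pairs and −0.45 in DMSO pairs, and these differed by −0.12 ± 0.24 (half-width of the 95% interval), with an adjusted p of 1.00 in limma.
Creb3l3, a liver transcription factor of fasting, fell by 1.15 ± 0.18, and the thioesterase Acot2 by 0.74 ± 0.08. Acot1 and Acot2 are close paralogs, and the division of reads between them is uncertain. Slc25a20, the mitochondrial carnitine carrier, fell by 0.36 ± 0.04. Agt, the liver's angiotensinogen, lies outside these lists and fell by 2.34 ± 0.05, with 384, 393 and 527 in replicate 3 against 1791, 2175 and 2542 in replicate 1.

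Genes of mitosis were all higher in replicate 3. The 18 listed genes were tested, 18 were called higher, against 24.9% of all genes, and in 18 the libraries of the 2 numbers did not overlap, against 20.7%. Their median was 0.76 in log2. Ccnb1, a cyclin that activates CDK1 at entry into mitosis, had 2907, 3182 and 3563 in replicate 3 against 1394, 1539 and 2376 in replicate 1 (0.88 ± 0.10). Ccnb2, a paralog that also binds CDK1, had 1623, 1739 and 1929 in replicate 3 against 715, 838 and 1334 in replicate 1 (0.91 ± 0.10). In both genes the 2 highest libraries of replicate 1 were those of the T24 to T30 window. The windows were normalized separately, so this order cannot be read as a difference in level between windows. Bub1b of the spindle checkpoint, Tpx2 of the spindle and the kinase Aurka rose by 0.84 ± 0.07, 0.81 ± 0.08 and 0.81 ± 0.06. The mitotic kinase Plk1 and Cdc20, which activates the anaphase-promoting complex, were each higher by 0.77; their printed promoters hold both CCAAT and TTTGAA, while that of Ccnb1 holds 2 CCAAT matches and no TTTGAA.

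Of 18 genes for DNA replication 14 were higher (77.8%, against 24.9% of all genes) and none lower, at a smaller median of 0.24. Rrm2, a subunit of ribonucleotide reductase, had 6191, 6502 and 6876 in replicate 3 against 3914, 4056 and 4971 in replicate 1 (0.62 ± 0.05), and Tyms, thymidylate synthase, rose by 0.50 ± 0.05. Replicate 2 stood at a median of −0.28 from replicate 1 for DNA replication and of 0.12 for mitosis. Among 16 p53 targets and inhibitors of the cell cycle 10 were higher and none lower (median 0.35), among them Ccng1 by 0.53 ± 0.05, Cdkn2a, which encodes the inhibitors INK4a and ARF, by 0.49 ± 0.05, Bax by 0.45 ± 0.04 and Mdm2 by 0.43 ± 0.03.

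**Figure D4:**
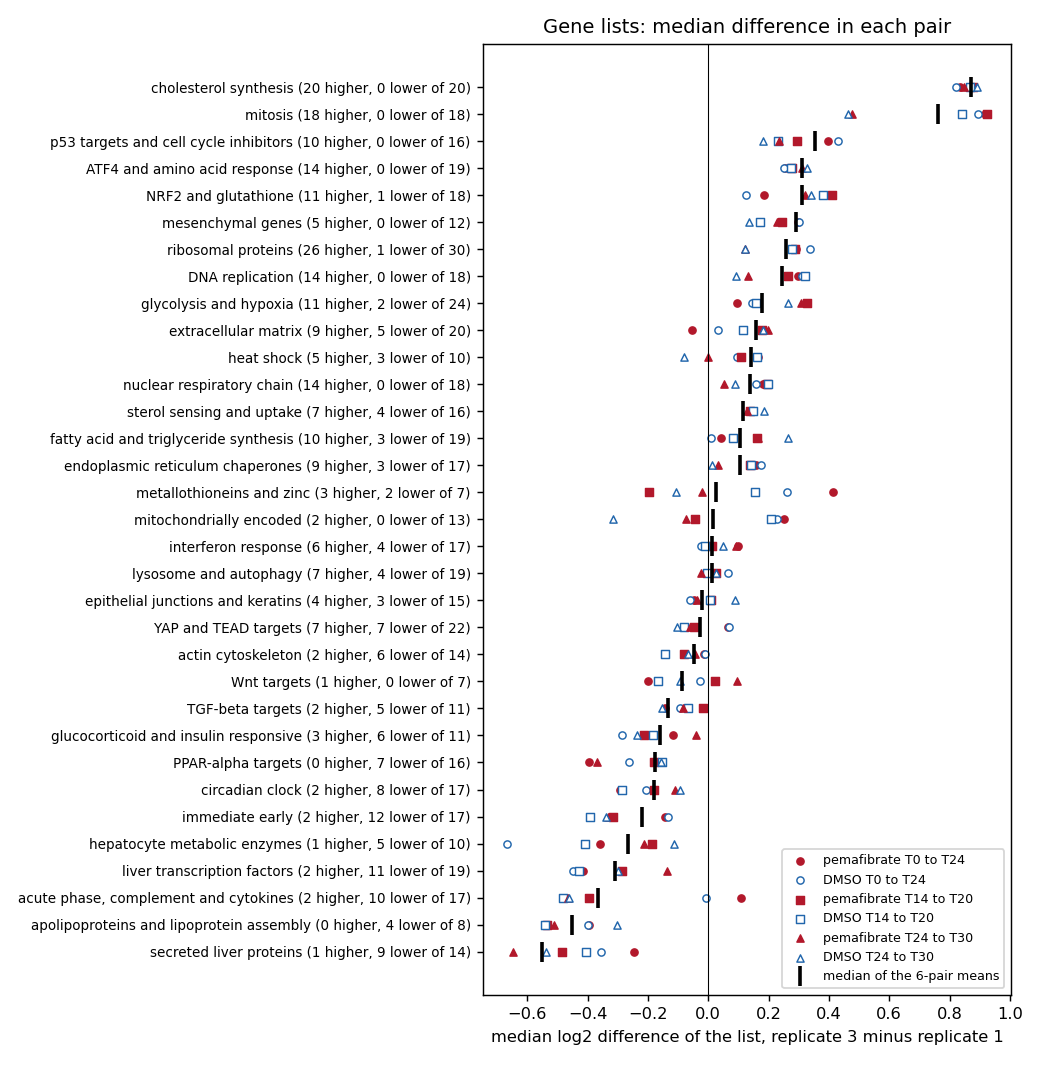
Median log2 difference of each of the 33 gene lists, replicate 3 minus replicate 1: symbols give each of the 6 pairs and the bar the median of the genes' means over pairs; counts of called genes stand beside the names. Cholesterol synthesis (0.87) and mitosis (0.76) stand at the top, apolipoproteins (−0.45) and secreted liver proteins (−0.55) at the bottom.

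Genes for protein and energy supply were more often higher than lower. Of 30 ribosomal protein genes 26 were higher and 1 lower (median 0.26), with Rps3 and Rpl18 among the largest at 0.34 each. Of 18 nuclear genes of the respiratory chain 14 were higher and none lower (median 0.14), with Cox7c at 0.26 ± 0.04 and the cytochrome c gene Cycs at 0.25 ± 0.04. Both lists hold short transcripts, with median lengths of 1200 and 1832 bases. After the difference was centred on genes of like length, 22 ribosomal and 8 respiratory genes were higher, and Cox7c was no longer called. The respiratory count was 9 without the pemafibrate T0 to T24 pair and 9 without the DMSO T14 to T20 pair.
Among 13 mitochondrially encoded genes 2 were higher, and 0 to 4 when 1 pair was left out. The amino acid response driven by ATF4 had 14 higher and none lower of 19 (median 0.31), with the serine synthesis enzymes Psat1 and Phgdh at 0.42 ± 0.03 and 0.42 ± 0.04 and the cystine transporter Slc7a11 at 0.54 ± 0.08. Among 18 NRF2 and glutathione genes 11 were higher and 1 lower. Hmox1, haem oxygenase, had 1865, 3136 and 3393 in replicate 3 against 1488, 1545 and 1734 in replicate 1 (0.78 ± 0.12), and the ferritin light chain Ftl1 rose by 0.67 ± 0.05. Glycolysis and hypoxia genes split into 11 higher and 2 lower of 24: Gapdh, Pkm, Pgk1 and Ldha of glycolysis rose by 0.56, 0.54, 0.49 and 0.45 (SE 0.03 to 0.05), and Vegfa, the angiogenic factor, fell by 0.61 ± 0.09.

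Among 12 tested mesenchymal genes 5 were higher and none lower. Cdh2, N-cadherin, which hepatocytes also express, had 15890, 17390 and 17960 in replicate 3 against 10310, 10930 and 12220 in replicate 1 (0.65 ± 0.03), and the filament protein Vim rose by 0.29 ± 0.03. Epithelial junction and keratin genes were called in both directions, 4 higher and 3 lower of 15 (26.7% and 20%), which is near the 24.9% and 22.7% of all genes. Tjp3, a tight junction scaffold, fell by 1.44 ± 0.14 and Gjb1, the main gap junction protein of hepatocytes, by 0.71 ± 0.06, whereas Cdh1, E-cadherin, fell by 0.16 ± 0.03. Of 20 extracellular matrix genes 9 were higher, such as Tnc at 0.72 ± 0.12, and 5 lower, such as Fn1 at −0.41 ± 0.06.
TGFβ targets moved apart, with 2 higher and 5 lower of 11. Pmepa1, which restrains TGFβ signalling, had 5683, 6016 and 6208 in replicate 3 against 3777, 4128 and 4807 in replicate 1 (0.52 ± 0.05), while Tgfb1i1 fell by 1.43 ± 0.16. YAP and TEAD targets were 7 higher and 7 lower of 22 (31.8% each, against 24.9% and 22.7% of all genes). Actin cytoskeleton genes were 2 higher and 6 lower of 14 (14.3% and 42.9%), with Actb lower by 0.18 ± 0.04.

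Immediate early genes, which respond within minutes to growth factors and stress, were lower in 12 and higher in 2 of 17. Those shares were 70.6% and 11.8%, against 22.7% and 24.9% of all genes. Egr1 had 609, 736 and 1325 in replicate 3 against 1931, 2395 and 2924 in replicate 1 (−1.49 ± 0.09). Egr2 fell by 1.60 ± 0.19 and Fos by 0.92 ± 0.17, and Klf4 rose by 0.70 ± 0.07. Of 17 acute phase, complement and cytokine genes 10 were lower (58.8%) and 2 higher (11.8%). C4b of complement had 1476, 1720 and 2332 in replicate 3 against 3993, 4810 and 6416 in replicate 1 (−1.47 ± 0.06), and the adhesion molecule Vcam1 fell by 0.74 ± 0.04, while Orm1 rose by 1.22 ± 0.11. In this list replicate 2 did not lie between the numbers but at a median of 0.36 above replicate 1, beside −0.36 for replicate 3.

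Clock genes were lower in 8 (47.1%, against 22.7% of all genes) and higher in 2 (11.8%, against 24.9%) of 17. The period genes Per2, Per3 and Per1 fell by 0.73 ± 0.11, 0.68 ± 0.12 and 0.65 ± 0.08, and Nfil3 rose by 0.54 ± 0.06. All of these were the same in direction in 6 of 6 pairs, and in no clock gene were the libraries of the 2 numbers apart. The remaining lists were smaller in size of change or mixed. Endoplasmic reticulum chaperones were 9 higher and 3 lower of 17, heat shock genes 5 and 3 of 10, interferon response genes 6 and 4 of 17, and lysosome and autophagy genes 7 and 4 of 19. Genes responsive to glucocorticoid and insulin were 3 higher and 6 lower of 11, with Zbtb16 lower by 1.61 ± 0.09. Metallothionein and zinc genes were 3 higher and 2 lower of 7, and Wnt targets 1 higher and none lower of 7.

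Outside the lists, the largest rise among genes with a mean of at least 100 was that of Xlr, an X-linked gene of lymphoid and germ cells, with 144, 167 and 203 in replicate 3 against 31.5, 41.2 and 48.6 in replicate 1 (2.05 ± 0.13). Xlr belongs to a multigene family, so its count is uncertain. Il2rg, the common cytokine receptor chain, had 598, 632 and 674 in replicate 3 against 191, 227 and 260 in replicate 1 (1.49 ± 0.07), and the integrin Itga7 had 1121, 1278 and 1342 in replicate 3 against 475, 503 and 534 in replicate 1 (1.31 ± 0.06). None of the 3 overlapped between the numbers.
Pax8, a kidney and thyroid transcription factor, Ddr2, a collagen receptor, and Fgfbp1, which releases fibroblast growth factors from the matrix, rose by 1.44 ± 0.17, 1.36 ± 0.21 and 1.27 ± 0.07. Among the falls, Gabrp, a GABA receptor subunit of epithelia, had 34.7, 47.4 and 98.2 in replicate 3 against 337, 401 and 575 in replicate 1 (−3.00 ± 0.20). Cnr1, the cannabinoid receptor CB1, fell by 1.65 ± 0.08.

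Markers of other liver cells were set beside these results. Of the hepatocyte list Alb, Apoe, Ttr and Serpinc1 were lower, Hnf4a was higher, Trf, Apob and Fgb were not called, and Apoa1 and Ahsg were below the filter, both under 16 in every one of the 12 libraries. Of 10 stellate cell or fibroblast markers 4 were tested and 2 higher, Dcn at 23.8 ± 3.17 in replicate 3 and 9.98 ± 2.46 in replicate 1 and Col1a1 at 45.4 ± 18.6 in replicate 3 and 19.8 ± 6.10 in replicate 1 (SD, n = 6 each). The summed level of all 10 was 164 to 229 in replicate 3 and 113 to 137 in replicate 1, and Lrat and Lum did not exceed 1.02 in any library. Summed levels here and below are over all listed markers of a cell type, also those below the filter. Of 6 tested cholangiocyte markers 2 were higher and 3 lower (summed level 55500 to 59620 in replicate 3 and 58800 to 66540 in replicate 1), of 2 endothelial markers 1 was lower (26.6 to 49.2 in replicate 3 and 41.5 to 70.9 in replicate 1), and of 4 macrophage markers 1 was lower (3825 to 5509 in replicate 3 and 5171 to 6209 in replicate 1), with Adgre1 and Clec4f at 0 in all 12. The part of other cells in the differences was not tested.

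The difference between the numbers depended on the window for 7.9% of genes (1048), by limma's moderated F test of the interaction of replicate and window. That count is fragile: it was 0 without the variance trend and 143 to 525 whichever pair was left out. Of 18 mitosis genes 12 were called. Their median difference was 0.89 in the T0 to T24 window, 0.89 at T14 to T20 and 0.48 at T24 to T30. Ccnb1 had 3088 with pemafibrate and 3563 with DMSO in replicate 3 at T24 to T30, against 2345 with pemafibrate and 2376 with DMSO in replicate 1. At T0 to T24 it had 2988 with pemafibrate and 2907 with DMSO in replicate 3, against 1506 with pemafibrate and 1394 with DMSO in replicate 1. The tables of the windows were normalized separately, so these levels are read within a window.

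Cholesterol synthesis had a median of 0.80, 0.88 and 0.87 in the 3 windows, and 1 of its 20 genes was called. The smallest p was that of Ccn2, a matricellular protein and YAP target. In the 24 h window it had 15700 with pemafibrate and 15690 with DMSO in replicate 3, against 16750 with pemafibrate and 15830 with DMSO in replicate 1. The numbers were close there and lay apart in both 6 h windows. At T14 to T20 it had 7887 with pemafibrate and 8055 with DMSO in replicate 3, against 16170 with pemafibrate and 17190 with DMSO in replicate 1. At T24 to T30 it had 6936 with pemafibrate and 7030 with DMSO in replicate 3, against 15020 with pemafibrate and 15300 with DMSO in replicate 1. Its difference was thus −0.05, −1.06 and −1.12 in the 3 windows (adjusted p = 0.000381).
The collagen receptor integrin Itga2 had differences of −0.02, −1.06 and −1.24, and Lcn2, the iron-binding acute phase protein lipocalin 2, −0.05, −0.72 and −0.80 (adjusted p = 0.00152 each). Hmox1 differed by 0.30, 0.98 and 1.07 (adjusted p = 0.00314), and the chemokine Cxcl5 by 0.46, −0.18 and −0.25 (adjusted p = 0.00152). Another of the 5 smallest p-values belonged to an identifier without a gene name. Acute phase, complement and cytokine genes had medians of 0.04, −0.44 and −0.46, and 9 of 17 were called. In Per2 and Per3 the fall was smaller at T24 to T30, with differences of −0.93, −0.96 and −0.29 for Per2 and −0.85, −0.99 and −0.19 for Per3.

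**Figure D5:**
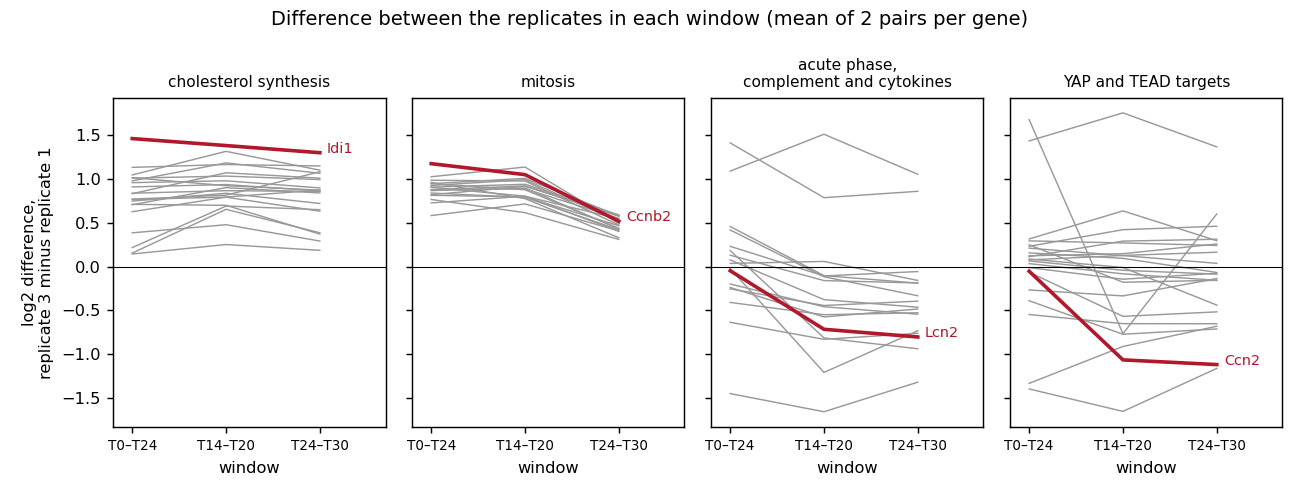
Log2 difference, replicate 3 minus replicate 1, of each gene of 4 lists in the 3 windows (mean of 2 pairs, pemafibrate and DMSO), with 1 gene per list in red. The median is 0.80 to 0.88 for cholesterol synthesis in every window and 0.89, 0.89 and 0.48 for mitosis, and Lcn2 and Ccn2 are near 0 at T0 to T24 and lower in replicate 3 in both 6 h windows.

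The difference was called as depending on treatment in no gene. In the interaction of replicate and treatment limma called 0 genes (0%), and 230 genes (1.73%) had an unadjusted p under 0.05, a smaller share than that threshold. This fit had no term for differences of the replicates by window. Such differences therefore counted as spread, which can hide dependence on treatment. The smallest p was that of Zfp969, a zinc finger gene, with a difference of −1.51 in pemafibrate pairs and 0.38 in DMSO pairs. Its difference of these, −1.89 ± 0.78 (half-width of the 95% interval), had an adjusted p of 1.00. For Idi1, Alb and Apoe the pemafibrate pairs minus the DMSO pairs gave 0.00 ± 0.26, 0.05 ± 0.16 and −0.03 ± 0.28, and dependence on treatment within these intervals was not detectable with 3 pairs a treatment in this fit.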

How the data were processed

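Values are the normalized signal per gene that the authors deposited in 1 table per window, per the file headers, for 35551 mouse gene IDs, of which 35181 matched a symbol. Aligner, counter, genome build and annotation: not given in the sources used here. From these, log2(value + 1) was computed, genes averaging 10 or more over 12 libraries were kept, and limma 3.58.1 in R 4.3.3 was fitted with a variance trend and the 6 groups as blocks (two-sided, Benjamini-Hochberg over all 13259 genes, threshold 0.05). Interactions with treatment and window used the same values. No count test was run. Fits were tested on simulated data with independent noise in each library. The main fit recovered 56% of 1.2-fold and 88% of 2-fold changes. The treatment fit recovered 67% of 2-fold changes, and the window fit 31% of 2-fold changes set in 1 window. Of the unchanged genes 6, 2 and 1 were called in these fits. Named genes were Idi1, Alb and Apoe, the 15 largest rises and falls of one sign in 6 pairs at a mean of at least 100, up to 5 called genes per list, and 5 genes per interaction; others say so or are list members given for pathway order or as markers. Members and lists were chosen with earlier results of these data known. Other scalings, filters, pseudocounts and left-out pairs were tried. Some genes within these rules are not reported here by name.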

Additional observations from a re-analysis of the deposited data

Results flagged for a closer look

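The difference between replicate 3 and replicate 1 varied with the window in 29 of 125 named genes that were checked, by the interaction test (limma, Benjamini-Hochberg adjusted p in what follows). In the cell cycle these were Ccnb2 (0.0077), Tpx2 (0.011), Ccnb1 (0.013), Bub1b (0.021), Rrm2 (0.022) and Ccng1 (0.019). Among matrix, adhesion, cytoskeleton, mesenchymal and YAP target genes they were Ccn2 (0.00038), Itga2 (0.0015), Fn1 (0.015), S100a6 (0.019), F3 (0.034) and Vcl (0.044). Among inflammatory and early response genes they were Lcn2 (0.0015), Cxcl5 (0.0015), Egr1 (0.012), Stat2 (0.025) and Cxcl2 (0.042). Clock, stress and metabolic genes were Hmox1 (0.0031), Per3 (0.013), Per2 (0.015), Vegfa (0.015), Ass1 (0.019), Scd2 (0.026), Ftl1 (0.041) and Pgd (0.047). The others were Clu (0.016), Ttr (0.02), Pax8 (0.025) and Rps3 (0.042). Ccn2, Itga2, Lcn2, Cxcl5, Hmox1, Ccnb1 and Ccnb2 were called in 6 of 6 fits that left out 1 pair, and no gene of the 29 was called without the variance trend.

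In 4 named genes 1 of the 6 pairs stood apart from the others. Vtn differed by −0.43 in the DMSO T24 to T30 pair and by −2.32 to −1.68 in the others. Ppara differed by 0.35 in the DMSO T0 to T24 pair and by −0.98 to −0.81 in the others. Tgfb1i1 differed by −2.35 in the pemafibrate T14 to T20 pair and by −1.35 to −0.98 in the others. Cox7c differed by 0.48 in the DMSO T0 to T24 pair and by 0.17 to 0.27 in the others. Chance alone flags about 1 in 20 such sets of pairs.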

How the results depend on the processing

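With the replicate number as the block, no paired analysis was possible, because that number is what is compared. The fit is paired by group instead, and without this pairing 3085 genes were higher and 2915 lower. Idi1, Alb and Apoe kept their direction and their calls under every alternative run, with 1.333 to 1.425, −1.051 to −1.016 and −2.184 to −2.134 in log2 when 1 pair was left out. Leaving out 1 pair gave 2698 to 3363 genes higher, 2404 to 3040 lower, 89 to 106 higher and 193 to 257 lower at least 2-fold, 143 to 525 called by window, and 0 to 1 by treatment (Zfp969, −2.35, adjusted p = 0.0166 in limma, without the DMSO T14 to T20 pair). Counts of 2-fold higher and lower genes were 53 and 108 with a pseudocount of 10, 177 and 350 without a filter, and 33 and 66 with a mean of at least 100. Without a filter 50 genes, and without the variance trend 0, were called by window. Higher and lower genes numbered 1154 and 1049 in DMSO pairs only, 1703 and 1514 in pemafibrate pairs only, 2036 and 1852 with treatments averaged, and 1138 and 1081 at T24 to T30 only, against 3060 and 2462 at T0 to T24 only and 2888 and 2434 at T14 to T20 only, with as many libraries. Genes lower at least 2-fold numbered 352 at T0 to T24 and 125 at T24 to T30, and 166 were higher at least 2-fold at T14 to T20. Within 1 window Ass1 (−0.103) and Fosb (0.062) reversed at T0 to T24, and Cxcl5 in both later windows (−0.179 and −0.245). The cause of these changes was not tested. Depth before normalization is unknown, so no counting limit can be set on low genes.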
